A study of Gasterosteus aculeatus with 29 samples.

Results

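The genes described here are the 200 steadiest abundant genes in the brains of three-spined stickleback (Gasterosteus aculeatus), out of 17730 genes in the table. A gene counted as abundant when its mean was at least 6 log2 CPM (log2 counts scaled to library size, as deposited) over 27 of the 29 libraries, which 1458 genes reached. The 200 with the lowest standard deviation (SD) over those libraries were taken. The values that chose them are therefore the values described below, and only the libraries neither replicate 3 and both replicate 7, which the choice left out, bring measurements it did not use.

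Genes whose transcripts stay at a constant share of a tissue's RNA are commonly called housekeeping genes, because many serve functions that every cell needs, such as protein synthesis, RNA processing, protein turnover and energy supply. They are used as internal references in quantitative PCR and in the scaling of sequencing libraries. In a whole brain, a constant level can also hide opposite changes between cell types, since the RNA of neurons, glia and blood vessels is pooled. The table names genes by identifier, and 0 of its identifiers matched the reference table of gene names, so the roles of these genes are not given and the whole-brain label was not set against marker genes.

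Each library was the whole brain of 1 fish. In the group called neither, the father had not met predation risk while he tended his brood and the fish was not exposed as a juvenile. Paternal only had exposed fathers and unexposed fish, personal only had unexposed fathers and fish exposed as juveniles, and both had exposed fathers and exposed fish. The 27 libraries used were 4 neither (3 fathers), 8 paternal only (5 fathers), 9 personal only (5 fathers) and 6 both (4 fathers), from 16 fish labelled female and 11 labelled male. Several fish share a father, and each father belongs to 1 paternal condition. The labels give no age or strain for the fish. In bulk tissue, fewer cells of a type and less RNA per cell cannot be told apart.

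The libraries held 2244609 to 55155451 reads in the table, with a median of 8121703. Neither replicate 3 (male, father M8) stood apart, since its table held 61.2% of the scaled library size where the median of the 27 libraries was 45.8%. Both replicate 7 (labelled male, father M11) went against its sex label. For ENSGACG00000012640 it had 2.49 log2 CPM, within the range of the females (1.71 to 2.93) and below that of the other males used (4.74 to 5.71). For ENSGACG00000013963 it had -0.33, where the females reached from -0.44 to 3.24 and the males from 4.13 to 4.87.

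The steadiest genes spread over most of the range of abundance. Their mean log2 CPM had a median of 6.57 and reached from 6.00 to 10.72, and the 1458 abundant genes had a median of 6.70 and a highest mean of 11.50. Between 6 and 7 log2 CPM, 137 of 945 abundant genes were among the steadiest (14.5%). The share was 44 of 356 (12.4%) between 7 and 8, 15 of 115 (13.0%) between 8 and 9, 2 of 29 (6.90%) between 9 and 10, and 2 of 13 (15.4%) from 10 up. These are reads per gene, not corrected for transcript length, so they do not rank the genes by number of transcripts. Together the 200 genes took 6.00% to 6.47% of the reads in each of the 27 libraries (median 6.24%), and 6.39% in neither replicate 3 and 6.23% in both replicate 7. These shares are of the reads in the table, which in neither replicate 3 held 61.2% of the scaled library size against a median of 45.8%. Only with that denominator was the summed share in neither replicate 3 shown to lie inside the range of the others. On the deposited scale its median member lay 0.33 log2 units above the mean of the 27 libraries. Its single genes did not keep their levels, as described further on.

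**Figure D1:**
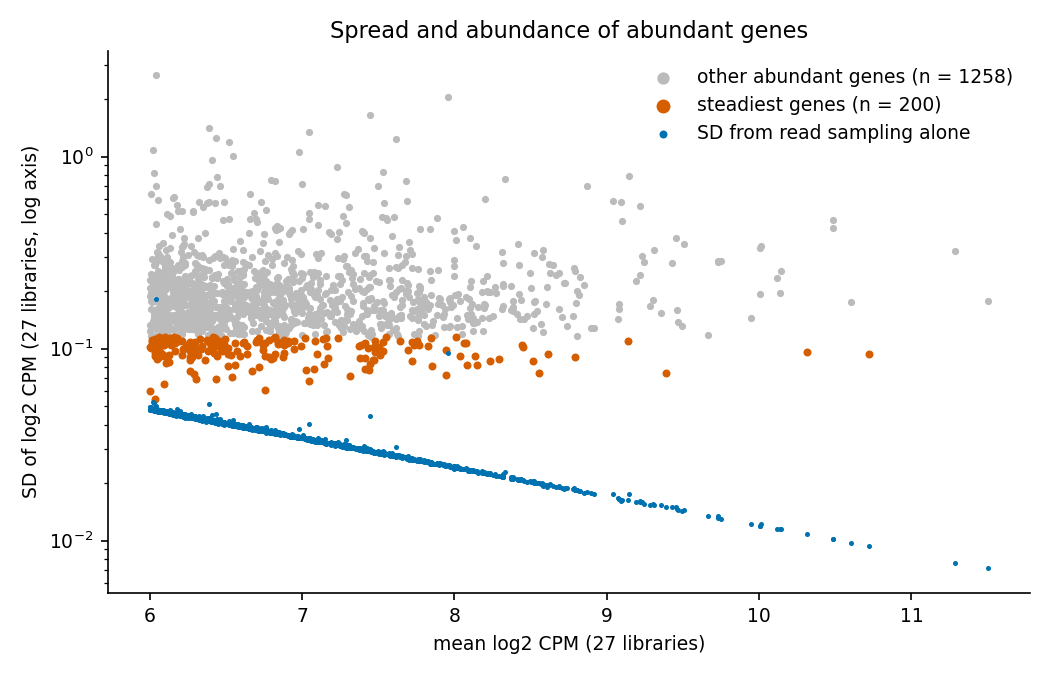
Spread against abundance for the 1458 abundant genes. The x axis is the mean log2 CPM over 27 libraries and the y axis, on a log scale, is the SD; orange points are the 200 steadiest genes, grey points the other 1258, and blue points the SD that read sampling alone would give each gene. The orange band ends at an SD of 0.115 and runs across the range of abundance, above nearly all blue points.

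The spread of these genes was small in absolute terms. Their SD reached from 0.055 to 0.115 log2 units with a median of 0.102, where the 1458 abundant genes had a median of 0.170. The distance between the highest and the lowest of the 27 libraries was 1.31-fold for the median gene, 1.14-fold for the narrowest and 1.48-fold for the widest. For the other 1258 abundant genes the median distance was 1.66-fold. The limit was not a gap in the data. ENSGACG00000009598, the last gene inside it, had an SD of 0.1154 and ENSGACG00000015573, the first outside, 0.1155.

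ENSGACG00000013337 had the lowest SD, 0.055. Its neither libraries were at 6.04, 6.06, 6.01 and 6.03 log2 CPM (replicates 1, 2, 4 and 5), paternal only at 5.94 to 6.12 (median 6.01), personal only at 5.98 to 6.13 (median 6.05) and both at 5.95 to 6.10 (median 6.04). All groups overlapped, and no library lay over 1.14-fold from any other. ENSGACG00000004234 had an SD of 0.060, with neither at 5.95, 6.06, 6.03 and 5.98, paternal only at 5.91 to 6.08 (median 5.97), personal only at 5.92 to 6.13 (median 5.99) and both at 5.92 to 6.08 (median 6.00). Its mean of 6.00 sat at the abundance limit itself. ENSGACG00000020193 had an SD of 0.061 at a mean of 6.75, with neither at 6.79, 6.74, 6.71 and 6.70, paternal only at 6.62 to 6.85 (median 6.75), personal only at 6.67 to 6.85 (median 6.75) and both at 6.70 to 6.85 (median 6.77).

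The member with most reads was ENSGACG00000013530, with 8373 to 202818 reads per library. It had 10.77, 10.73, 10.65 and 10.68 log2 CPM in neither, 10.66 to 10.86 in paternal only (median 10.79), 10.55 to 10.86 in personal only (median 10.64) and 10.50 to 10.79 in both (median 10.75). ENSGACG00000012793 followed with 10.37, 10.36, 10.38 and 10.23 in neither, 10.24 to 10.39 in paternal only (median 10.34), 10.14 to 10.50 in personal only (median 10.25) and 10.12 to 10.51 in both (median 10.37). Each of these genes overlapped between all groups, with an SD of 0.093 and 0.097.

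Read sampling set part of the remaining spread. The variance expected from the number of reads alone came to a median of 15.9% of the measured variance over the 200 genes, against 4.51% over all abundant genes. It was highest for ENSGACG00000013337, at 75.3%, and lowest for ENSGACG00000013530, at 1.01%. No gene had fewer than 254 reads in any of the 27 libraries. Sampling intervals cover counting error only, since copies made by PCR were not told apart.

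By median, the labels took shares of the spread close to those in the abundant genes as a whole. Father accounted for a median of 46.4% of the variance of the 200 genes and for 48.7% over the abundant genes, where 10 labels unrelated to the values would take 34.6% on average. Lane accounted for 13.7% and 14.0% (15.4% for unrelated labels), the 4 exposure groups for 12.0% and 11.7% (11.5%), and sex for 3.34% and 3.86% (3.85%). The values for unrelated labels are averages, so they do not match these medians in kind. By average, father took 46.4% of the members' variance and 48.8% over the abundant genes. Lane took 16.6% and 16.0%, the exposure groups 13.2% and 14.2%, and sex 5.11% and 8.06%. By average, sex thus took more than unrelated labels would, and less in the members than in the abundant genes. Fathers are nested in paternal exposure and these shares overlap, so they do not add up. The median correlation between pairs of the 200 genes over the 27 libraries was 0.08, with quartiles of -0.10 and 0.27. For the other 1258 abundant genes it was 0.02, with quartiles of -0.23 and 0.28. The first component of the members' departures held 15.7% of the variance and the second 14.6%. The number of members above their mean ran from 45 (paternal only replicate 3) to 155 (paternal only replicate 7), with a median of 97 per library. These correlations share libraries and their scaling and are given as a description.

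Because a low SD is what chose the genes, each of the 27 libraries was also set against a list chosen without it. These lists of 200 shared 185 to 197 genes with the full list. The median absolute departure of the held-out library from the mean of the others was 0.052 (paternal only replicate 1) to 0.108 log2 units (both replicate 6), with a median of 0.074. Both replicate 6 was also the shallowest library, with 2244609 reads, whereas both replicate 5, with 55155451 reads, had 0.081. The part of depth in these departures was not tested. By group the lowest and highest held-out departures were 0.059 and 0.078 for neither, 0.052 and 0.105 for paternal only, 0.054 and 0.095 for personal only, and 0.054 and 0.108 for both. By lane their medians were 0.070 to 0.084. A held-out library had at most 2 of its 200 genes beyond 1.5-fold of the mean of the others, in both replicate 3, and 0 beyond 2-fold.

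Differences between exposure groups were small for every one of the 200 genes, as the choice demands. An SD of 0.115 over these libraries cannot hold a group difference above 0.36 log2 units for paternal only against neither, 0.35 for personal only against neither, 0.38 for both against neither, 0.24 for either effect averaged over the other, 0.48 for the interaction and 0.23 between the sexes. The fitted differences (limma, over all 16593 genes tested, with sex and a random father effect) stayed well inside these bounds. They are given with their 95% intervals as a description of size, with no test, since the same values chose the genes. A choice for low SD also narrows the intervals, so they can hold the true difference less often than 95%. The counts of intervals within 1.25-fold or 1.5-fold follow in part from the choice. All these intervals are for the 27 libraries. With the left-out libraries in the fit they were wider, most of all for the interaction (58 intervals within 1.25-fold and 169 within 1.5-fold). For the fit to the 27 libraries with a random father effect, counts of members past a threshold stand beside the share of all genes tested. The reason is the same, and nothing is read from these counts.

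For paternal only against neither the absolute differences of the 200 genes had a median of 0.045 and reached 0.19. The intervals of 199 genes lay within 1.25-fold in both directions, and all lay within 1.5-fold. Limma called 0 of them at an adjusted p under 0.05, and 0% of all genes tested. At an unadjusted p under 0.05 there were 9 members (4.5%), where the share of all genes was 7.57%. ENSGACG00000001408 had the lowest difference. It was at 6.10, 6.14, 6.16 and 6.14 log2 CPM in neither and at 5.81 to 6.15 (median 5.96) in paternal only, so that 7 of the 8 paternal only libraries lay below all of neither. The difference was -0.19 ± 0.066 (SE, interval -0.33 to -0.05), and -0.17 (interval -0.35 to 0.01) without the fish of father M33. With personal exposure only the gene was at 5.95 to 6.11 (median 6.05), and with both at 5.88 to 6.18 (median 6.07). ENSGACG00000014488 had the highest, with 6.25, 6.11, 6.16 and 6.14 in neither and 6.23 to 6.46 (median 6.31) in paternal only. These groups overlapped at their edges, and the difference was 0.16 ± 0.065 (interval 0.02 to 0.29). It was 0.13 (interval -0.03 to 0.29) without the fish of father M8 and 0.14 (interval -0.04 to 0.32) without those of father M33.

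For personal only against neither the median absolute difference was 0.038 and the largest 0.15, and all 200 intervals lay within 1.25-fold. Limma called 0 members, and 0% of all genes. There were 3 members (1.5%) at an unadjusted p under 0.05, against 3.98% of all genes. ENSGACG00000008970 led, with 7.65, 7.49, 7.43 and 7.52 log2 CPM in neither and 7.48 to 7.81 (median 7.68) in personal only, a difference of 0.15 ± 0.061 (interval 0.02 to 0.27). Its groups overlapped, and without the fish of father M8 the difference was 0.09 (interval -0.07 to 0.24). ENSGACG00000002440 had the lowest difference, -0.10 ± 0.069 (interval -0.24 to 0.04), from 6.74, 6.80, 6.82 and 6.81 in neither and 6.57 to 6.80 (median 6.70) in personal only, and was at -0.06 without father M8.

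For both against neither the median absolute difference was 0.061 and the largest 0.18, with 199 intervals within 1.25-fold. Limma called 0 members, and 0.0181% of all genes. There were 12 members (6%) at an unadjusted p under 0.05, against 10.7% of all genes. ENSGACG00000016968 had the highest difference, with 8.83, 8.67, 8.65 and 8.65 log2 CPM in neither and 8.82 to 8.98 (median 8.86) in both. The 2 groups met only through neither replicate 1, and the difference was 0.18 ± 0.063 (interval 0.05 to 0.31). Leaving out the fish of father M33 gave 0.15 (interval -0.02 to 0.31). ENSGACG00000009138 had the lowest, -0.16 ± 0.074 (interval -0.32 to -0.01), from 6.11, 6.14, 6.26 and 6.27 in neither and 5.93 to 6.11 (median 5.99) in both. Without the fish of father M33 it was at -0.11 (interval -0.30 to 0.09). These 3 comparisons share the 4 neither libraries.

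Averaged over personal exposure, the paternal difference had a median absolute value of 0.040 and a largest value of 0.12, and averaged over paternal exposure the personal difference had 0.027 and 0.10. All 200 intervals lay within 1.25-fold in each. Limma called 0 members for the paternal effect (0.0121% of all genes) and 0 for the personal effect (0%). At an unadjusted p under 0.05 there were 12 members (6%), against 10.3% of all genes, and 4 members (2%), against 4.72% of all genes. ENSGACG00000003516 had the highest average paternal difference, 0.12 ± 0.046 (interval 0.03 to 0.22), with means of 6.37 in neither, 6.46 in personal only, 6.52 in paternal only and 6.57 in both. ENSGACG00000009138 had the lowest, -0.12 ± 0.051, with means of 6.19, 6.11, 6.04 and 6.01 in the same order. When the fish of father M33 were left out, ENSGACG00000003516 had 0.10 (interval -0.01 to 0.21) and ENSGACG00000009138 -0.09 (interval -0.21 to 0.04). ENSGACG00000011818 had the highest average personal difference, 0.10 ± 0.037, with means of 7.81 in neither, 7.94 in paternal only, 7.97 in personal only and 8.02 in both. Compared within fathers, a fit chosen after seeing the data, its difference was 0.06 (interval -0.02 to 0.15). ENSGACG00000013727 had the lowest, -0.09 ± 0.040, with 6.49, 6.54, 6.40 and 6.46, and was at -0.07 (interval -0.15 to 0.02) without father M43.

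The interaction, which asks whether the cues add on the log2 scale, was the least narrowly bounded comparison. Its median absolute value was 0.054 and its largest 0.21, and 189 of 200 intervals lay within 1.25-fold, all within 1.5-fold. Limma called 0 members, and 0% of all genes. There were 5 members (2.5%) at an unadjusted p under 0.05, against 3.72% of all genes. The extremes were the genes with the lowest and highest difference for paternal only against neither. ENSGACG00000001408 was at 0.21 ± 0.080 (interval 0.04 to 0.37) and ENSGACG00000014488 at -0.19 ± 0.079 (interval -0.36 to -0.03). These estimates rest on the same neither and paternal only libraries as above. When the fish of father M33 were left out they were 0.19 (interval -0.02 to 0.39) and -0.18 (interval -0.39 to 0.02). Of the fits that left out a neither fish or a father, other fathers gave the smallest sizes. ENSGACG00000001408 was at 0.15 (interval -0.02 to 0.32) without father M42, and ENSGACG00000014488 at -0.13 (interval -0.28 to 0.02) without father M11.

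**Figure D2:**
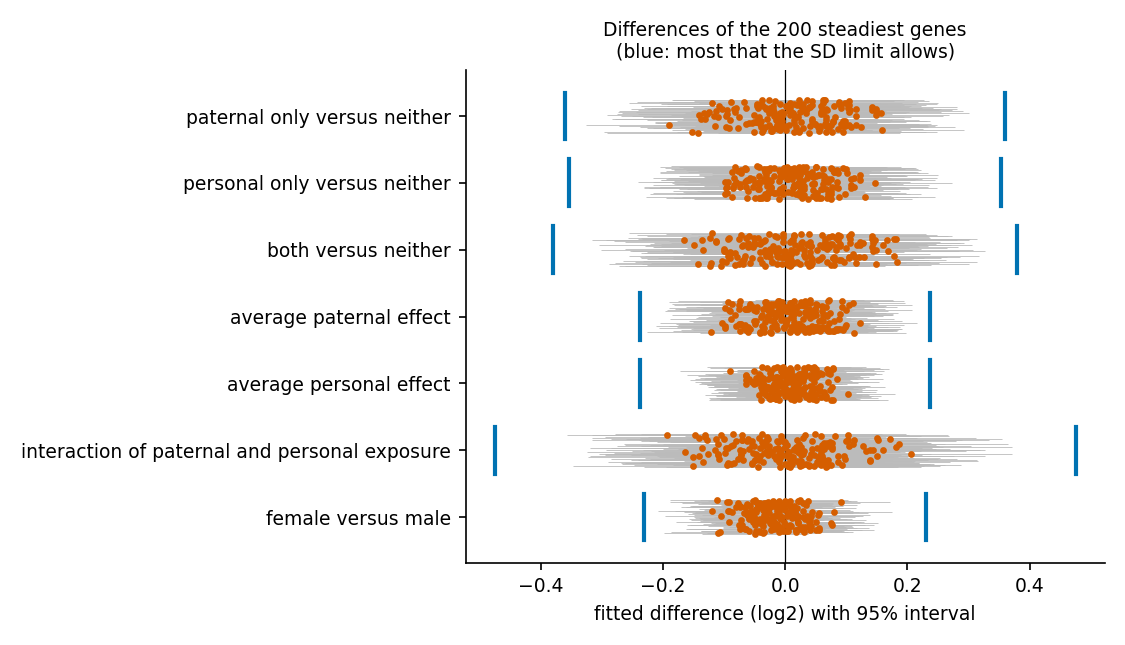
Fitted differences of the 200 steadiest genes in each comparison. The x axis is the difference on the log2 scale, orange points are genes, grey lines their 95% intervals, and blue bars mark the largest difference of group means that an SD of 0.115 allows. The points lie within 0.21 of 0 in every comparison, and the intervals are narrowest for the average personal effect and for sex and widest for the interaction.

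Between females and males the median absolute difference was 0.033 and the largest 0.12, with all 200 intervals within 1.25-fold. Limma called 0 members, and 3.67% of all genes. There were 13 members (6.5%) at an unadjusted p under 0.05, against 13% of all genes. More members were lower in females (140, or 70.0%) than higher (60), where 60.7% of the abundant genes and 54.6% of all genes tested were lower. Without the fish of father M11 the counts were 111 and 89, given without the shares of the other genes, so nothing is read from them. The members' median difference was -0.02, which was also the median of the abundant genes, while the median of all genes tested was -0.01. ENSGACG00000019254 had the lowest difference, with 7.01 to 7.34 log2 CPM in females (median 7.20, n = 16) and 7.06 to 7.39 in males (median 7.32, n = 11). The ranges overlapped over most of their length, and the difference was -0.12 ± 0.043 (interval -0.21 to -0.03). It was -0.16 ± 0.042 without the 3 fish of father M15 used here and -0.08 ± 0.046 (interval -0.17 to 0.01) without those of father M20. ENSGACG00000020006 had the highest difference, 0.09 ± 0.039 (interval 0.01 to 0.17), with 6.51 to 6.91 in females (median 6.77) and 6.54 to 6.79 in males (median 6.66). Its difference was 0.07 (interval -0.02 to 0.16) without the fish of father M20. The interval also reached below 0 without those of father M31, without those of father M41 or without neither replicate 1. Compared within fathers, a fit chosen after seeing the data, its difference was 0.06 (interval -0.04 to 0.16).

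Both replicate 7, which the choice did not use, kept the levels of these genes. Its median absolute departure over the 200 genes was 0.079 log2 units, inside the range of 0.052 to 0.108 of the held-out libraries. It lay above the mean of the 27 libraries in 97 genes and below it in 103. No member departed by more than 1.5-fold, where 1.44% of all abundant genes did (1.03% above and 0.412% below). It lay outside the range of the 27 libraries in 15 members (7.5%), where 6.93% of the abundant genes did and held-out libraries did in 1% to 25.5% of theirs. ENSGACG00000015245 lay highest above the mean, at 8.37 log2 CPM against 7.95 to 8.33 in the 27 libraries, or 1.18-fold, and ENSGACG00000020545 next at 6.91 against a mean of 6.70, or 1.15-fold. Farthest below were ENSGACG00000004766, at 6.44 against a mean of 6.76 and a lowest value of 6.56, and ENSGACG00000004169, at 6.43 against 6.71.

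Neither replicate 3 did not keep them. Its median absolute departure over the 200 genes was 0.656 log2 units, against at most 0.108 in any held-out library. It lay outside the range of the 27 libraries in 173 members (86.5%), 108 above and 65 below, and in 77.6% of all abundant genes. Beyond 1.5-fold of the mean there were 112 members (56%), against 65.2% of the abundant genes, with 76 above (36.1% of the abundant genes) and 36 below (29.1%). Beyond 2-fold there were 35 members (17.5%), against 37% of the abundant genes, with 26 above (20.9%) and 9 below (16.2%). The members thus left the range of the other libraries in a larger share than the abundant genes did, and passed 2-fold in a smaller one. The range itself is narrow for the members by choice.

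**Figure D3:**
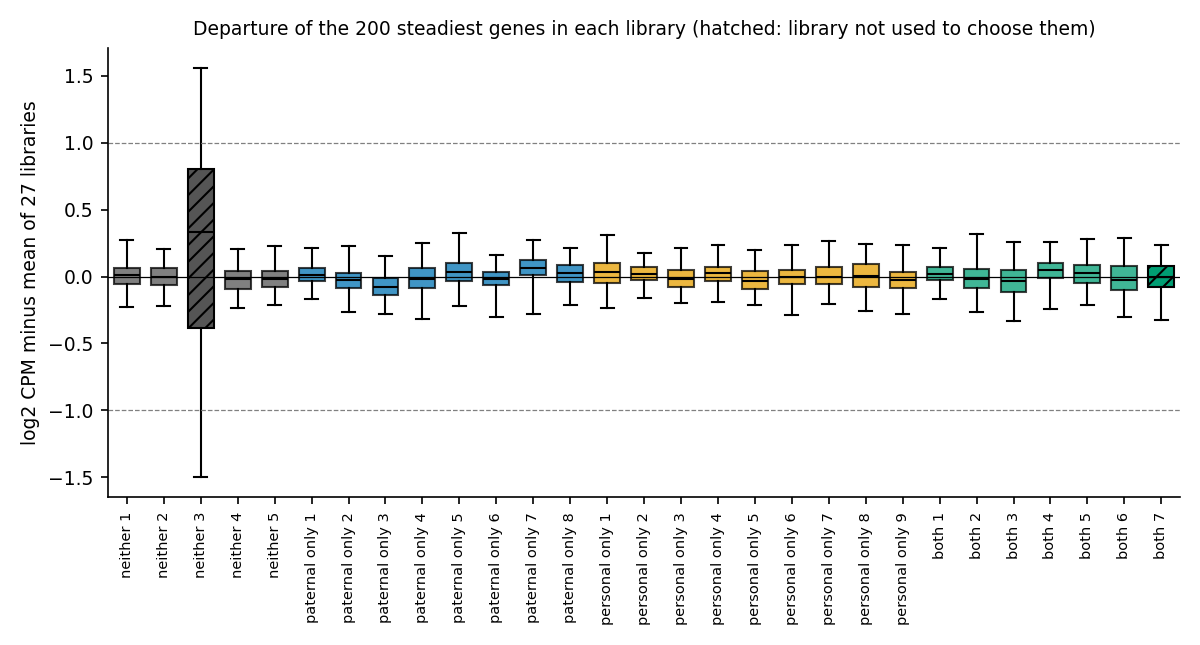
Departure of the 200 steadiest genes in each library. The y axis is log2 CPM minus the mean of the 27 libraries used, boxes show quartiles with the median as a line, whiskers reach the lowest and highest gene, colours mark the exposure groups and hatched boxes the libraries left out of the choice; dashed lines mark 2-fold. Neither replicate 3 spans -1.50 to 1.56, and every other library, both replicate 7 included, stays within 0.34 of 0.

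The departures of neither replicate 3 went in both directions, with quartiles of -0.38 and 0.80 around a median of 0.33. Scaling to the reads in the table, chosen after seeing the data, moves every gene of this library by 1 constant of -0.42 and so cannot change their width. It set the median at -0.09, with 67 members more than 1.5-fold lower and 24 more than 1.5-fold higher, the reverse of the deposited balance. The 1458 abundant genes reversed as well, with 608 lower and 298 higher, against 424 and 527 as deposited. With lists chosen anew under TMM (trimmed mean of M values) and median-of-ratios scaling, the medians were 0.29 and 0.33. Beyond 1.5-fold, 69 and 77 genes were then higher and 42 and 35 lower, the same balance as on the deposited scale. The share over the abundant genes is not given for these lists, so nothing particular to the members is read from them. The steadiest gene of all, ENSGACG00000013337, was at 6.57 in this library, 1.45-fold above its mean of 6.03. ENSGACG00000013530 and ENSGACG00000012793, the members with most reads, were at 11.62 and 11.23, which is 1.86-fold and 1.89-fold above their means.

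ENSGACG00000013727 departed farthest upwards. It was at 8.03 log2 CPM in neither replicate 3 and at 6.37, 6.60, 6.49 and 6.50 in the other neither libraries, and the 27 libraries reached from 6.30 to 6.66. The library was 2.94-fold above their mean. ENSGACG00000017341 followed at 7.43, with 5.78 to 6.21 in the others, a 2.69-fold departure. ENSGACG00000015177 departed farthest downwards, at 4.58 against 6.09, 6.05, 5.99 and 5.94 in the other neither libraries and 5.89 to 6.29 in all 27, or 0.354 of the mean. ENSGACG00000015168 was at 5.30 against 6.42 to 6.85, or 0.396 of the mean. Each of these 4 genes had at least 315 reads in every one of the 27 libraries.

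**Figure D4:**
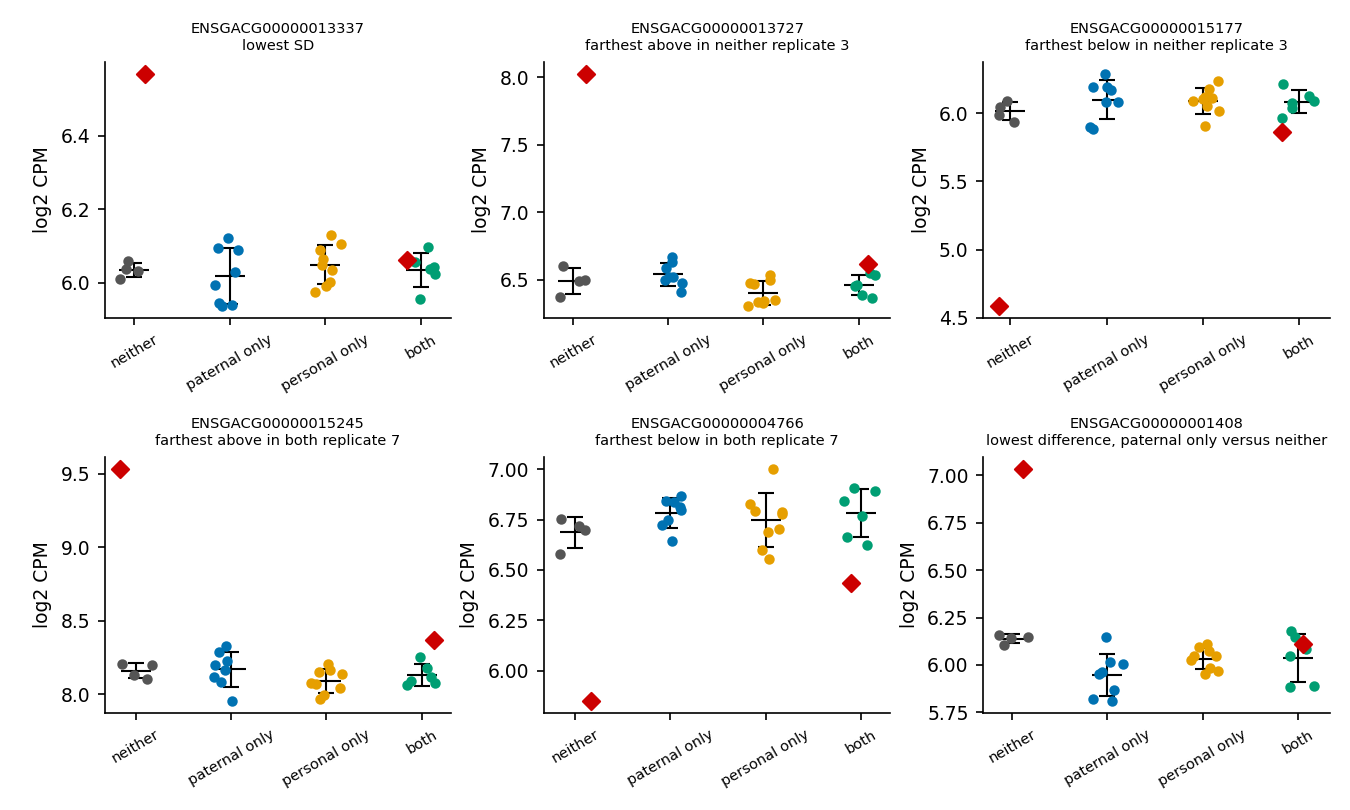
Values of 6 of the 200 genes by group. The y axis is log2 CPM, circles are the 27 libraries used, red diamonds are neither replicate 3 and both replicate 7, and bars show the mean and SD of the circles. Circles of the 4 groups overlap in every panel, whereas neither replicate 3 lies far above or below them, at 8.03 for ENSGACG00000013727 and 4.58 for ENSGACG00000015177.

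Steadiness over the 27 libraries carried over to the left-out libraries to different degrees. In both replicate 7 the median absolute departure rose with the rank of SD, from 0.079 in the steadiest 200 abundant genes to 0.099 in the next 200 and 0.165 in ranks 1201 to 1400, and it was 0.437 in the last 58. In neither replicate 3 it rose from 0.656 in the steadiest 200 and 0.748 in the next 200 to 1.01 in ranks 801 to 1000, and then fell to 0.796 in ranks 1201 to 1400. Measured against each gene's own SD, the median departure of neither replicate 3 was 6.27 SD for the 200 genes and 4.29 SD for the other abundant genes, and that of both replicate 7 was 0.828 SD and 0.705 SD. The SD of the chosen genes is low by choice, which raises such multiples.

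**Figure D5:**
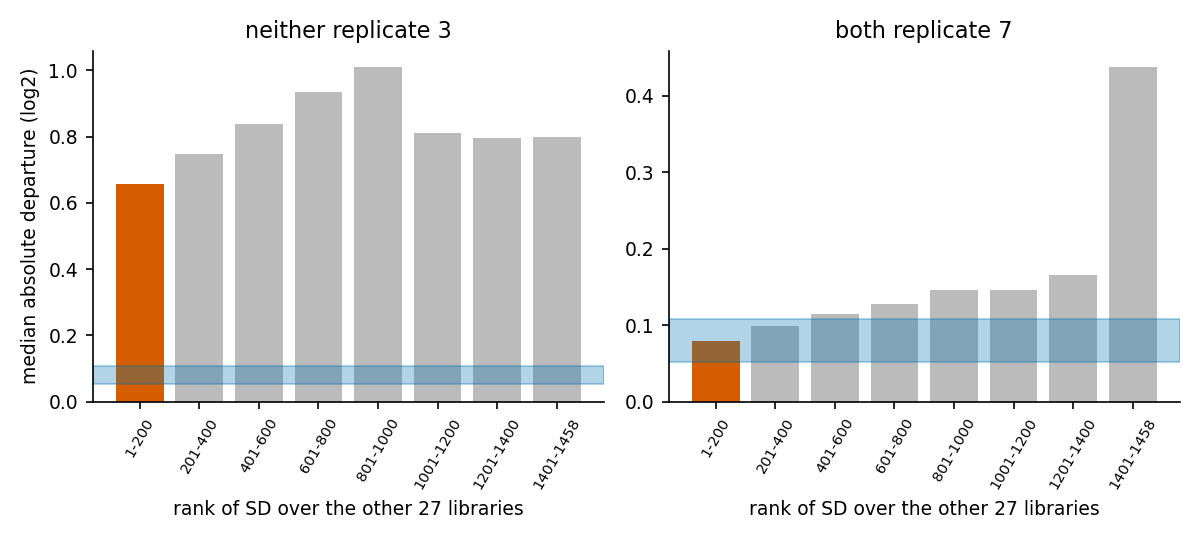
Median absolute departure of the left-out libraries by rank of SD. The x axis gives ranks of the 1458 abundant genes by SD over the other 27 libraries and the y axis the median absolute departure in log2 units, with the 200 steadiest in orange; the blue band spans the held-out libraries, 0.052 to 0.108. The orange bar lies in the band for both replicate 7 and far above it for neither replicate 3, and the y axes differ.

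The departures of neither replicate 3 resembled those of some other libraries in direction and ran against those of others. Over the 200 genes they correlated with those of both replicate 7 at r = 0.63 and with those of neither replicate 2, a brother of the same father, group and label of sex, at r = 0.63. With the sisters personal only replicates 3 and 4 the r was 0.20 and 0.36, while fish of other fathers reached 0.48 (both replicate 6), 0.39 (paternal only replicate 7) and 0.33 (neither replicate 5). The lowest values were -0.54 (personal only replicate 8), -0.53 (both replicate 2), -0.49 (paternal only replicate 5) and -0.44 (paternal only replicate 8). Over all 1458 abundant genes the r was 0.57 with both replicate 7 and 0.53 with neither replicate 2. These correlations run across genes, which are not independent replicates, and all departures are taken from the same mean, so they are given without a test. The departures of neither replicate 2 were small in size, with a held-out median of 0.073.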

How the data were processed

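RNA of whole brains was enriched for poly-A and sequenced from single ends, per the labels' protocols. The submitters' processing notes list edgeR, HTSeq (0.6.1), TopHat2 (2.0.8) and CASAVA (1.8.2), with no order. They also name a mouse build, so the build, annotation and strand setting behind the stickleback values are not given in the sources used here. The authors deposited log2 CPM values for 17730 genes in 29 libraries. Groups, father and sex come from the labels and lane from the titles. Replicates are numbered in deposition order. Every library shared a floor of -6.77 log2 units, and above it the linear values were multiples of a step per library, so 100% of them became whole reads (tolerance 0.01 reads). These recovered reads gave depth and read-sampling variance. The most alike libraries, neither replicate 5 and personal only replicate 5, had a chi-square per gene of 1.82, where the next pair had 4.84. Both come from father M33, are labelled male, were run on lane 6 and held 4506365 and 4560529 reads. They differed by more than read sampling and were kept as separate samples, but whether they are distinct fish was not tested beyond this. Without a stated strand setting, reads of overlapping or near-identical genes cannot be told apart.

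Members were chosen on the deposited values. Comparisons were fitted with limma-trend (version 3.58.1, on R 4.3.3 with statmod 1.5.0) over the 16593 genes that exceeded 0 log2 CPM in 5 or more of the 27 libraries, with group means, sex and father as a random block (correlation within fathers 0.168), and Benjamini-Hochberg adjustment over these genes. The fits that leave out a fish or a father kept this correlation. The fit was run on simulated data for the average paternal effect only, with folds of 1.5 or more and no father effect. That run cannot check the father block or differences as small as those given here. Members, lists and tests were chosen with earlier results of these data known. Genes named are the 3 steadiest, the 2 with most reads, those at the SD limit, the 2 farthest above and 2 farthest below in each left-out library, and the highest and lowest in each comparison, plus sex-differing genes for the label check.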

Additional observations from a re-analysis of the deposited data

Results flagged for a closer look

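Each group was searched for a single library standing off from its fellows, over 112 combinations of group and measure, and 24 such values were found. Chance gives about 1 in 20 where genes are not chosen on these values. That rate does not apply to neither replicate 3 here, since the genes were chosen for low SD without it and ENSGACG00000013727, ENSGACG00000017341, ENSGACG00000015177 and ENSGACG00000015168 for their distance in it. Of these, 23 belong to neither replicate 3 and 1 to paternal only replicate 1, and the genes share their libraries. In neither replicate 3 the median absolute departure of the members was 0.656 (0.059 to 0.078 in the other neither libraries) and their median signed departure 0.33 (-0.02 to 0.01). Its log2 CPM, with the other neither libraries in brackets, lay above them for ENSGACG00000013337 at 6.57 (6.01 to 6.06), ENSGACG00000004234 at 6.92 (5.95 to 6.06), ENSGACG00000020193 at 7.46 (6.70 to 6.79) and ENSGACG00000013530 at 11.62 (10.65 to 10.77). It was also above for ENSGACG00000012793 at 11.23 (10.23 to 10.38), ENSGACG00000013727 at 8.03 (6.37 to 6.60), ENSGACG00000017341 at 7.43 (5.85 to 6.09) and ENSGACG00000015245 at 9.54 (8.11 to 8.20). Higher values were found for ENSGACG00000020545 at 7.54 (6.57 to 6.85), ENSGACG00000001408 at 7.04 (6.10 to 6.16), ENSGACG00000002440 at 7.81 (6.74 to 6.82) and ENSGACG00000003516 at 7.37 (6.32 to 6.46). Above the others were ENSGACG00000011818 at 8.45 (7.73 to 7.85) and ENSGACG00000020006 at 7.70 (6.51 to 6.80). It lay below them for ENSGACG00000009598 at 5.18 (6.04 to 6.15), ENSGACG00000015573 at 6.37 (7.29 to 7.48), ENSGACG00000015177 at 4.58 (5.94 to 6.09) and ENSGACG00000015168 at 5.30 (6.42 to 6.62). Lower values were found for ENSGACG00000004766 at 5.85 (6.58 to 6.75), ENSGACG00000004169 at 6.05 (6.55 to 6.75) and ENSGACG00000014488 at 5.31 (6.11 to 6.25). In paternal only replicate 1, ENSGACG00000017341 was at 6.21 log2 CPM, above the 5.92 to 6.05 of the other paternal only libraries. No cause of these values was tested.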

How the results depend on the processing

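Replicate numbers pair nothing, so no fit has a replicate block. Fathers M8, M20 and M33 among the unexposed and M11, M15, M42 and M43 among the exposed had fish in both personal conditions. With father as a fixed block, chosen after seeing the data, 0 members were called, and the largest absolute differences were 0.135 (personal only against neither), 0.110 (average personal effect), 0.233 (interaction) and 0.152 (sex). At an unadjusted p under 0.05 there were 1, 3, 2 and 8 members, without the share of all genes, so nothing is read from them. The list shared 197 of 200 genes under TMM or median-of-ratios scaling, 185 with scaling to the reads in the table, 195 after subtracting read-sampling variance and 191 relative to the trend on abundance. It shared 100 with an abundance limit of 5, with all libraries in the SD or with 100 genes taken, 63 with a limit of 7 and 126 with the MAD. Leaving out each library kept 185 to 197. The median SD of 0.102 became 0.130 with a limit of 7, 0.115 with 400 genes and 0.137 with all libraries, and 0.0986 to 0.103 on leaving out each library.

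The median absolute departure of neither replicate 3 (0.656) was 0.636 under TMM, 0.561 scaled to the reads in the table, 0.586 and 0.823 with limits of 5 and 7, 0.633 and 0.688 with 100 and 400 genes, 0.712 with the MAD, 0.625 with residual SD, 0.682 without libraries under 4000000 reads, and 0.633 to 0.676 leaving out each library. With all libraries choosing, its own values entered the choice and it was 0.294. Beyond 1.5-fold there were 53 genes of 100, 241 of 400, 12 with all libraries and 108 to 118 leaving out each. Beyond 2-fold there were 19 of 100, 101 of 400, 73 with a limit of 7, 0 with all libraries and 33 to 42 leaving out each. The departure of both replicate 7 (0.079) was 0.107 with a limit of 7, 0.0621 with all libraries and 0.0756 to 0.0856 leaving out each, and 1 gene lay beyond 1.5-fold with residual SD.

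With all 29 libraries in the fit, the largest absolute differences were 0.37 (paternal only), 0.38 (personal only) and 0.34 (both) against neither, 0.19 and 0.22 for the average paternal and personal effects, 0.41 for the interaction and 0.17 for sex. Intervals within 1.25-fold then numbered 95, 99, 98, 189, 191, 58 and 198 of 200 in this order, and within 1.5-fold 196, 195, 194, 200, 200, 169 and 200. Of the named genes, ENSGACG00000001408 was then at -0.35 and ENSGACG00000014488 at 0.31 for paternal only against neither, and ENSGACG00000002440 at -0.30 for personal only against neither. This fit adds neither replicate 3 and both replicate 7 (as male, against its sex-differing genes), and the part of each was not tested. Leaving out a neither fish or a father gave largest differences of 0.162 to 0.237, 0.137 to 0.203 and 0.184 to 0.228 against neither. They were 0.118 to 0.147 and 0.0901 to 0.119 for the average paternal and personal effects. For the interaction they were 0.194 to 0.256, and for sex 0.114 to 0.163. Members called were 0 in every setting run except 1 for sex without father M15 (ENSGACG00000019254). Limma-voom called 0 members, with 11, 6, 17, 15, 4, 5 and 13 at an unadjusted p under 0.05. These are 5.5%, 3%, 8.5%, 7.5%, 2%, 2.5% and 6.5% of the members. Of all 16593 genes tested, 1915, 1310, 2596, 2631, 1168, 1097 and 3552 passed the same threshold. The choice of the members for low SD limits any difference, so nothing is read from these counts. Over all genes limma-voom called 1092 by sex where limma-trend called 609, 38 against 2 for the average paternal effect and 15 against 3 for both against neither. It called 2 against 0 for the interaction and 1 against 0 for paternal only and for personal only, each against neither. A quasi-likelihood count test was not run, since the deposited unit is log2.

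Read sampling made up a median of 15.9% of the members' variance, and the part of depth was not tested. Without gene names or lengths, function and length could not be described.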
